A study of Mus musculus with 6 samples.

Results

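Integrins and the proteins that gather at their cytoplasmic ends form focal adhesions, the sites at which a cell holds and senses its matrix. The transcripts of 33 such genes, given as a set of integrins and focal adhesion proteins, were examined in 4T1 cells that were knockout (KO) or wild type (WT) for Myo1e. Of these, 32 were among the 11452 genes of the deposited table, and 11 of the 32 encode integrin chains. Itgb8 was not analysed here. 4T1 is a mouse mammary tumour line, and Myo1e encodes myosin 1e, a class I myosin motor that binds membranes and actin. The cells were pools of 4T1, with 3 libraries per genotype. The sources used here do not say how the knockout was made or which cells make up a pool. Libraries are named by genotype and column number, as KO 1, KO 2 and KO 4 and WT 1, WT 2 and WT 4.

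Integrins are receptors of 1 alpha and 1 beta chain, and the pairing of chains sets which matrix protein is bound. Talins and kindlins bind the beta chain tail and switch the receptor to its active form, and vinculin ties talin to actin. The complex of integrin-linked kinase (Ilk), PINCH (Lims1) and the parvins, the alpha-actinins and the tensins add further links to actin. Focal adhesion kinase (Ptk2), Src and the adaptors paxillin (Pxn) and p130Cas (Bcar1) relay the signal. In mammary epithelium, Itga6 with Itgb4 builds hemidesmosomes, which fix cells to the basement membrane through keratins instead of actin.

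The 6 libraries held 17772003 to 19988206 recovered reads. The libraries numbered 4 stood apart in both genotypes: Pearson's r over all genes was 0.995 for KO 4 with WT 4, 0.944 to 0.951 for either with a library numbered 1 or 2, and 0.991 to 0.995 within that set of 4. Each genotype has 1 such library, so column number and genotype can be separated. The meaning of the number was not stated. The targeted gene Myo1e was at 6.87, 6.81 and 6.81 log2 CPM in KO 1, KO 2 and KO 4 and at 7.09, 7.02 and 6.91 in WT 1, WT 2 and WT 4, so its transcripts were present in every KO library. Its difference was -0.18 (SE 0.09) and did not pass the threshold (limma adjusted p = 0.9999). KO was below WT in 3 of 3 pairs, as for 17% of all genes. All KO libraries lay below all WT libraries, and the genotypes did not overlap for 3.63% of all genes. With the column number as a replicate block the SE was 0.05, and Myo1e again did not pass (limma adjusted p = 0.32). Of 10 epithelial markers 9 were measured, with summed levels of 3401 to 4456 CPM in KO and 3725 to 5146 CPM in WT, and Krt5 was not analysed here. Few markers of other cells were in the table, namely 2 of 14 for leukocytes, 2 of 10 for fibroblasts, 1 of 8 for endothelium and 1 of 5 for platelets.

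Among the 11 member integrin chains, the repertoire was dominated by a single alpha and a single beta chain. Levels between genes are compared per length, as CPM per kb of exon (CPM/kb), from recovered reads and the union of a gene's annotated exons. Itgb1, the beta chain shared by most matrix receptors, averaged 426 ± 73.5 CPM/kb over KO libraries and 415 ± 57.2 over WT libraries (SD, n = 3 each). Every ± value of a level that follows is likewise an SD over 3 libraries. Itga3, its partner in a laminin receptor of epithelial cells, was at 387 ± 45.2 CPM/kb in KO and 385 ± 44.0 in WT. Among the 6 alpha chains Itga3 made up 78.2 ± 1.12% of the summed level in KO and 79.5 ± 1.18% in WT. Among the 5 beta chains Itgb1 made up 87.9 ± 6.45% in KO and 87.6 ± 5.02% in WT.

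Below Itga3, the member alpha chains followed in the order Itga2, Itga6, Itgav, Itga5 and Itga1. Itga7, Itga8 and Itga2b are outside the set and are in neither this order nor the shares. Itga7 was at 3.14 to 4.45 log2 CPM over 8092 bases of exon. Itga2, the alpha chain of a collagen receptor, was at 44.4 ± 4.94 CPM/kb in KO and 40.9 ± 1.76 in WT. Itga6, a laminin receptor chain, was at 33.9 ± 12.3 CPM/kb in KO and 28.6 ± 7.63 in WT. Itgav, which pairs with several beta chains to bind RGD-containing ligands such as vitronectin, was at 20.4 ± 1.47 CPM/kb in KO and 20.2 ± 0.912 in WT. Itga2 lay above Itgav with no overlap over the 6 libraries. The range of Itga6 overlapped those of both neighbours, although Itga2 was above Itga6 within each of the 6 libraries. Itga5, the alpha chain of the main fibronectin receptor, was at 9.38 ± 2.79 CPM/kb in KO and 9.27 ± 2.80 in WT. Itga1, a further collagen receptor chain, was the lowest member alpha chain at 0.234 ± 0.0819 CPM/kb in KO and 0.313 ± 0.0850 in WT.

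Among the member beta chains Itgb1 was followed by Itgb5, Itgb4, Itgb3 and Itgb6. Itgb2 and Itgb7 are outside the set and are in neither this order nor the shares. Itgb2 was at 5.16 to 6.18 log2 CPM over 3052 bases of exon, above Itgb3 and Itgb6 in log2 CPM in every library. Itgb5, a partner of Itgav, was at 30.8 ± 16.5 CPM/kb in KO and 33.5 ± 10.7 in WT. Itgb4, the hemidesmosomal beta chain, was at 23.8 ± 7.08 CPM/kb in KO and 22.2 ± 7.65 in WT, and its range overlapped that of Itgb5. Itgb3 and Itgb6, both partners of Itgav, were at 0.858 ± 0.160 and 0.818 ± 0.188 CPM/kb in KO and at 0.972 ± 0.358 and 0.742 ± 0.429 in WT, with overlapping ranges. The lowest of these chains rested on few reads, 57 to 141 per library for Itga1 and 64 to 170 for Itgb6. With the longest transcript in place of the exon union, Itga6 came before Itga2 and Itgb6 before Itgb3, and no other place among the alpha or beta chains changed.

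**Figure D1:**
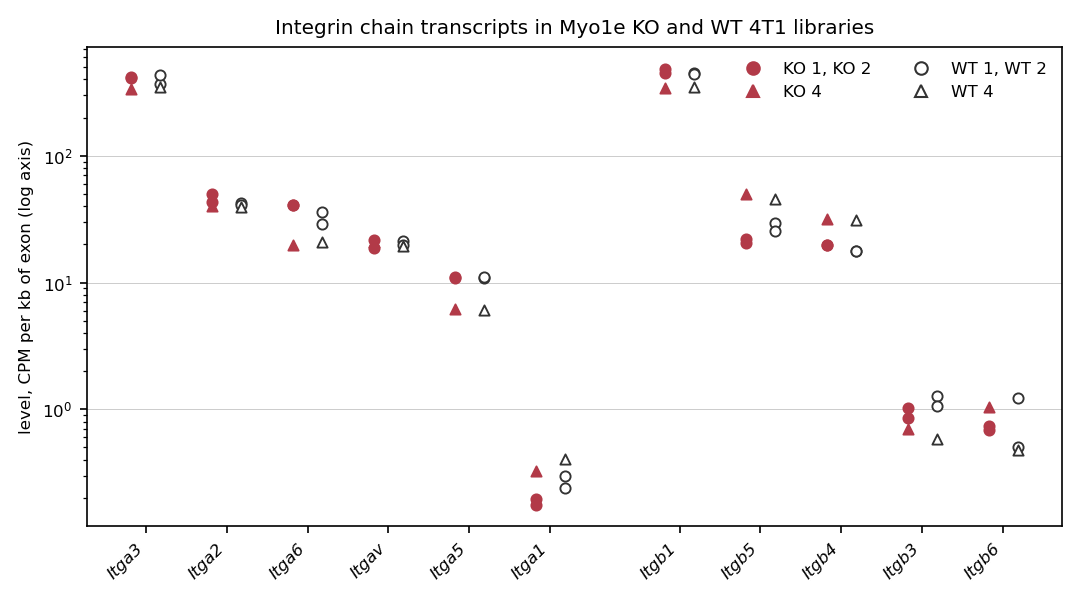
Level of each member integrin chain in CPM per kb of exon, on a log axis, in the KO (filled) and WT (open) libraries. Triangles mark the libraries numbered 4. Itga3 and Itgb1 lie between 335 and 486 CPM/kb in all 6 libraries, and the triangles part from the circles for Itga5, Itga6, Itgb4 and Itgb5 in both genotypes.

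Among the other members the alpha-actinins were the most abundant per length. Actn1, which crosslinks actin, was at 107 ± 22.5 CPM/kb in KO and 106 ± 30.4 in WT, and its relative Actn4 at 88.9 ± 23.9 in KO and 92.7 ± 25.3 in WT. Of paired isoforms, talin 1 (Tln1) was at 51.7 ± 3.88 CPM/kb in KO and 52.1 ± 1.29 in WT, and talin 2 (Tln2) at 2.64 ± 0.323 in KO and 2.37 ± 0.0571 in WT. Ptk2 was at 19.6 ± 1.73 CPM/kb in KO and 19.0 ± 2.03 in WT, and its relative Ptk2b at 4.18 ± 0.318 in KO and 3.81 ± 0.428 in WT. Kindlin 1 (Fermt1) and kindlin 2 (Fermt2) were alike by exon union, at 23.8 ± 2.50 and 21.5 ± 1.99 CPM/kb in KO and 22.2 ± 4.24 and 21.5 ± 1.96 in WT. By longest transcript Fermt1 was lower, at 25.05 against 33.9 CPM/kb for Fermt2, as means of the 6 libraries. Tensin 3 (Tns3) was the most abundant tensin, at 44.1 ± 9.06 CPM/kb in KO and 40.6 ± 9.65 in WT, and Tns1 the lowest member of all, at 0.127 ± 0.0884 in KO and 0.160 ± 0.0748 in WT.

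The comparison of KO with WT asks whether loss of Myo1e moves these transcripts, and no member passed the threshold of adjusted p = 0.05. The call rate was 0% over all 11269 genes tested with limma. An unadjusted p under 0.05 was found for 0 of the 32 members, against 23 of all genes. This fit leaves the difference between column numbers in the spread and few genes reach that p, so the count says little about the members. The largest difference of any member was 0.44 in size on the log2 scale, and for no member did the KO libraries all lie above or all below the WT libraries, against 3.63% of all genes. The members' median difference was 0.04, beside -0.01 over all genes tested. It was -0.01, 0.06 and 0.07 within the pairs numbered 1, 2 and 4. Higher in KO in 3 of 3 pairs were 9 members, beside 15.6% of all genes, and lower in 3 of 3 pairs were 6, beside 17% of all genes.

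With the column number as a replicate block, which takes the difference between numbers out of the spread, the members' median SE was 0.06 in place of 0.20. Again 0 members passed the threshold, as did 0.00887% of all genes, while 8 of the 32 had an unadjusted p under 0.05, beside 9.91% of all genes. Their adjusted p ranged from 0.27 to 0.50. With length and GC correction and the block the number was 6, beside 8.06% of all genes. When column 4 alone was fitted as a term, without the block, it was 4, beside 7.97%, and in libraries 1 and 2 only it was 7, beside 6.71%.

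The members with the largest differences were a collagen receptor chain and a tensin. Itga1 was at 1.89, 1.74 and 2.62 log2 CPM in KO 1, KO 2 and KO 4 and at 2.48, 2.16 and 2.92 in WT 1, WT 2 and WT 4. KO was below WT in 3 of 3 pairs, while KO 4 was above WT 1 and WT 2. The difference was -0.44 (SE 0.32 without the block and 0.14 with it), with an adjusted p of 0.9999 and, with the block, of 0.38 in limma's test. Tns1, which links actin to integrin tails, was at 0.53, 0.13 and 1.89 log2 CPM in KO 1, KO 2 and KO 4 and at 1.40, 0.48 and 1.92 in WT 1, WT 2 and WT 4. It differed by -0.42 (SE 0.58), most in the pair numbered 1 (-0.87) and little in the pair numbered 4 (-0.04). Tns1 rested on 18 to 76 reads per library.

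Tns4, a tensin without the actin-binding part of the others, had the smallest p of the members with the block. It was at 7.34, 7.54 and 7.07 log2 CPM in KO 1, KO 2 and KO 4 and at 6.93, 7.24 and 6.98 in WT 1, WT 2 and WT 4. KO was above WT in 3 of 3 pairs, by 0.41, 0.29 and 0.09. The difference was 0.26 (SE 0.16 without the block and 0.06 with it), and the adjusted p with the block was 0.27. Of the other 3 tensins Tns3 differed by 0.13 (SE 0.24) and Tns2 by -0.08 (SE 0.21), each the same way in 3 of 3 pairs.

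The laminin and vitronectin receptor chains differed unevenly between pairs. Itga6 was at 8.52, 8.54 and 7.47 log2 CPM in KO 1, KO 2 and KO 4 and at 8.02, 8.35 and 7.55 in WT 1, WT 2 and WT 4. Its difference was 0.20 (SE 0.35), with 0.50 and 0.19 in the pairs numbered 1 and 2 and -0.08 in the pair numbered 4. Without WT 4 it was -0.01 and without KO 4 it was 0.55. Itgb5 was at 6.30, 6.18 and 7.47 log2 CPM in KO 1, KO 2 and KO 4 and at 6.71, 6.50 and 7.34 in WT 1, WT 2 and WT 4. Its difference was -0.20 (SE 0.40), with -0.42 and -0.32 in the pairs numbered 1 and 2 and 0.12 in the pair numbered 4. Without WT 4 it was 0.04 and without KO 4 it was -0.61. Values without a library come from fits with no block, where column numbers are unequal between genotypes. Both genes pointed one way in pairs 1 and 2 and the other way in pair 4.

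Itgb4 was at 7.12, 7.11 and 7.81 log2 CPM in KO 1, KO 2 and KO 4 and at 6.97, 6.97 and 7.77 in WT 1, WT 2 and WT 4. It differed by 0.11 (SE 0.30), above WT in 3 of 3 pairs. Itgb6 was at 2.41, 2.29 and 2.89 log2 CPM in KO 1, KO 2 and KO 4 and at 3.15, 1.87 and 1.80 in WT 1, WT 2 and WT 4, so WT 1 was the highest of all. Its difference of 0.26 (SE 0.41) was made of -0.74, 0.42 and 1.09 in the pairs numbered 1, 2 and 4, and in libraries 1 and 2 only it was -0.16. Itgb3 differed by -0.12 (SE 0.33), with -0.58, -0.05 and 0.27 in the 3 pairs. Of the remaining chains Itgb1 differed by 0.03 (SE 0.19), Itga3 by 0.01 (SE 0.16), Itga2 by 0.11 (SE 0.11), Itgav by 0.02 (SE 0.10) and Itga5 by 0.02 (SE 0.33).

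In the ILK, PINCH and parvin complex Parva, alpha-parvin, differed by -0.13 (SE 0.10) and was below WT in 3 of 3 pairs. Lims1, the PINCH adaptor, differed by 0.12 (SE 0.29) and was above WT in 3 of 3 pairs. Both had an unadjusted p under 0.05 with the block (0.024 and 0.041) and an adjusted p of 0.42 and 0.48. The kinases Ptk2 and Src differed by 0.05 each (SE 0.12 and 0.15), and Vcl, vinculin, by 0.07 (SE 0.34). The remaining members differed by -0.07 to 0.15.

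**Figure D2:**
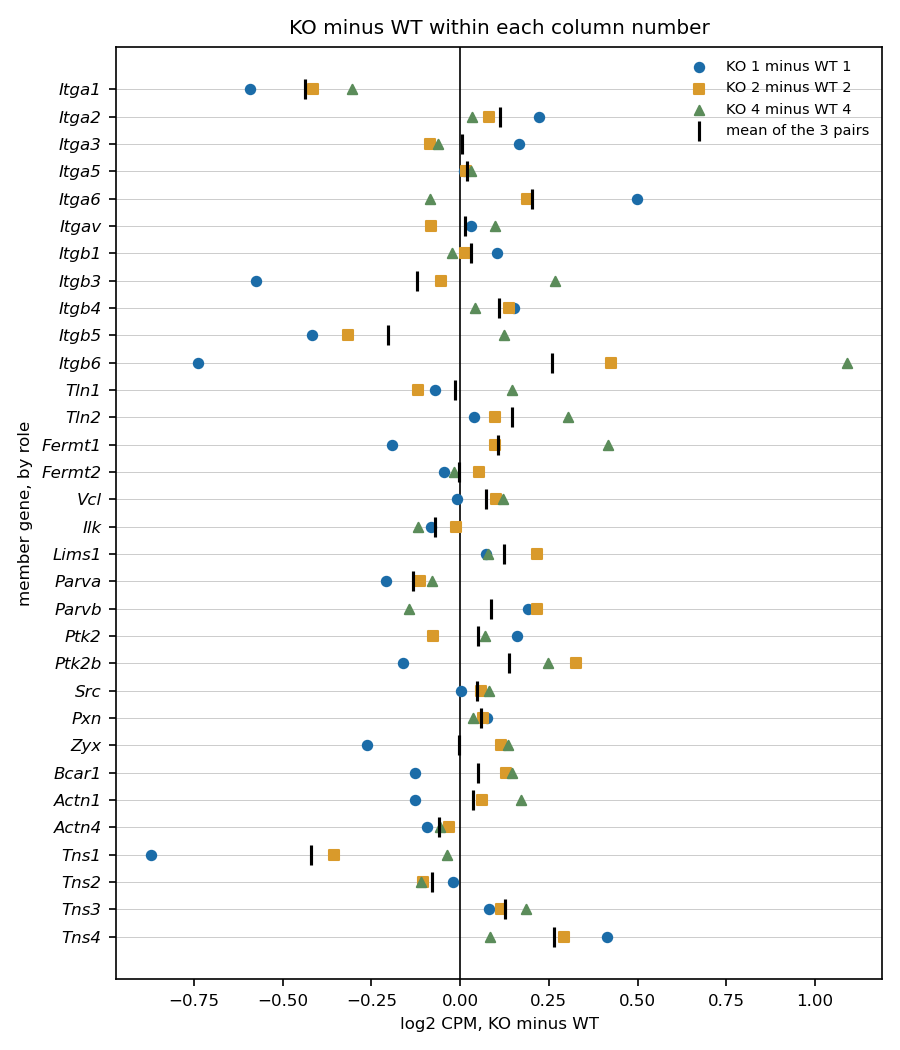
KO minus WT in log2 CPM for each of the 32 members within the pairs numbered 1 (circles), 2 (squares) and 4 (triangles), with the mean of the 3 pairs as a bar. Itga1 and Tns1 have the lowest means (-0.44 and -0.42), Itgb6 is spread from -0.74 to 1.09, and Itga6 and Itgb5 change sign between the pairs numbered 1 and 2 and the pair numbered 4.

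Whether the KO minus WT difference itself differed between the pair numbered 4 and pairs 1 and 2 was tested as an interaction. In limma's test 0 members passed, as did 0% of all genes tested, and 2 members had an unadjusted p under 0.05, beside 3.9% of all genes. These were Itgb5, with an interaction of 0.49 (SE 0.15, adjusted p = 0.9969), and Itga6, with -0.43 (SE 0.17, adjusted p = 0.9969). This test has 1 KO and 1 WT library numbered 4. Without WT 2, which leaves 1 residual degree of freedom, 6 members passed (Fermt1, Tns4, Zyx, Itga6, Itgb5 and Itgb6), as did 2.39% of all genes.

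**Figure D3:**
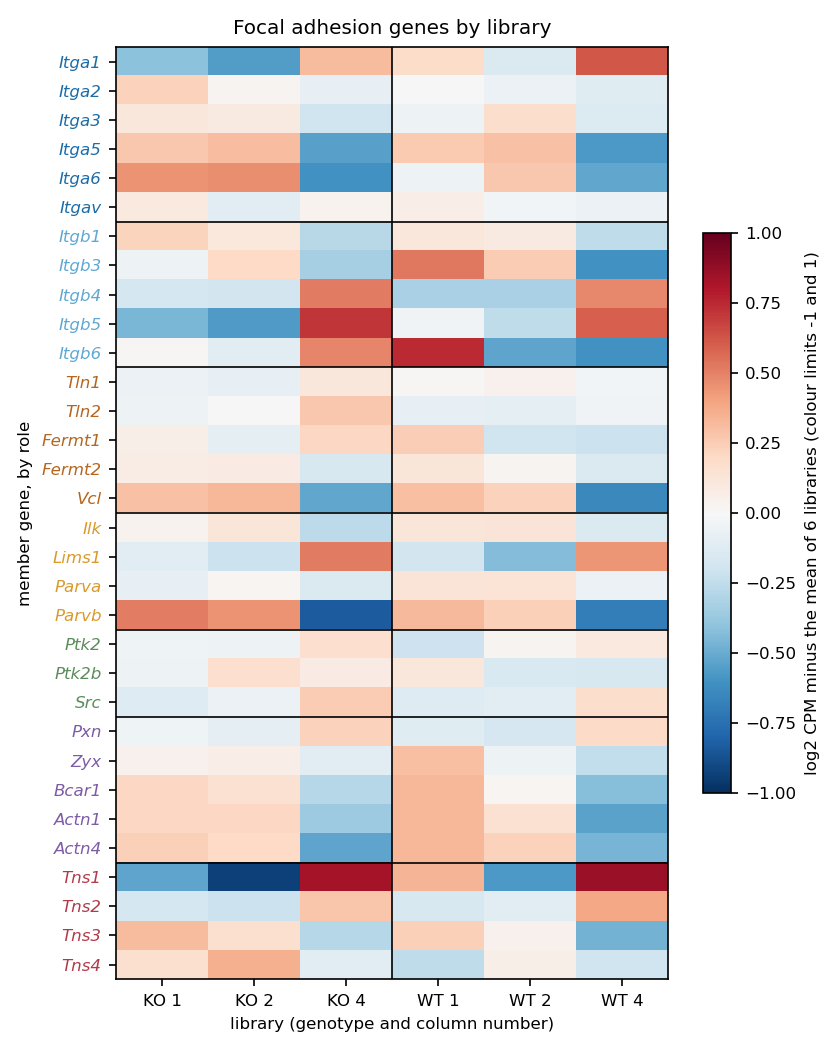
Log2 CPM of each member minus its mean over the 6 libraries, with KO libraries left and WT libraries right and genes grouped by role (colour of the name). The columns KO 4 and WT 4 resemble each other, with Parvb, Vcl, Itga5 and Itga6 low and Itgb4, Itgb5, Lims1 and Tns1 high in both.

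Most members differed between columns 4 and columns 1 and 2, in both directions. With genotype as a covariate, 9 members were higher and 15 lower in the libraries numbered 4 at an adjusted p of 0.05, and 8 did not pass. Over all genes 31.8% were higher and 33.8% lower, so a large share of calls is the background of this comparison. The members' median difference was -0.15, beside 0.0031 over all genes. The libraries numbered 4 lay wholly apart from the others for 24 members, beside 72.7% of all genes, above them for 9 members (35.8% of all genes) and below them for 15 (37% of all genes). Quantile normalization gave 10 higher and 11 lower, and reads scaled to library totals, which moves the median of all genes to 0.12, gave 11 and 11. The shares of all genes called under these settings are not given here, so these counts have no background beside them. Of the 24 members called, 15 passed in each of 18 alternatives and 23 kept their direction. Calls also ended in WT libraries only and without the mean-variance trend, and not every such loss is named below. Summed over the 11 integrin chains, the level was 849.5 and 863 CPM/kb in KO 4 and WT 4, against 1068, 1015, 977 and 1032 in KO 1, KO 2, WT 1 and WT 2. The sum uses the deposited scaling and is mostly Itgb1 and Itga3. With quantile normalization the Itgb1 difference shrank and the Itga3 difference turned, as given below.

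Other features moved with the column number. Mitochondrial genes held 0.343% and 0.309% of reads in KO 4 and WT 4, against 0.379% to 0.493% in the libraries numbered 1 and 2. The difference was correlated with transcript length at a Spearman's rho of 0.0889 and with GC content at 0.0017 (11174 genes, which are not independent replicates). The summed level of the 9 epithelial markers was 3401 to 3725 CPM in the libraries numbered 4, against 4375 to 5146 CPM in the others. Single markers went both ways, with 3 higher and 5 lower, beside 31.8% and 33.8% of all genes tested. Epcam, Cdh1 and Esrp1 were higher by 0.46, 0.36 and 1.34 on the log2 scale, while the keratins Krt8 and Krt7 had differences of -1.27 and -0.70. The 2 leukocyte markers, Itgb2 and Cd68, summed to 68.3 to 77.6 CPM against 41.3 to 63.6 CPM. They went opposite ways, with Itgb2 higher by 0.67 (SE 0.14) and Cd68 at -0.27 (SE 0.25), which did not pass. The 2 fibroblast markers, Pdgfra and Postn, summed to 51.5 to 71.0 CPM against 29.9 to 76.8 CPM. Egfl7, the endothelial marker, was at 7.26 to 7.68 CPM against 6.23 to 8.21 CPM, and Itga2b, the platelet marker, at 0.694 to 0.960 CPM against 0.155 to 1.03 CPM. Their part in the member differences was not tested. In bulk RNA, fewer cells of a kind and less RNA per cell cannot be told apart.

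The hemidesmosomal pair of integrin chains moved in opposite directions. Itga6 (GRCm38 chromosome 2, 71745616 to 71858416, plus strand) was at 7.47 and 7.55 log2 CPM in KO 4 and WT 4, against 8.52, 8.54, 8.02 and 8.35 in KO 1, KO 2, WT 1 and WT 2. It was lower in the libraries numbered 4, with a difference of -0.85 (SE 0.11, limma adjusted p = 0.000117), or 0.557 times. Itgb4 (chromosome 11, 115974709 to 116008412, plus strand) was at 7.81 and 7.77 log2 CPM in KO 4 and WT 4, against 7.12, 7.11, 6.97 and 6.97 in the others. It was higher by 0.75 (SE 0.05, adjusted p = 2.66e-06), or 1.68 times. In reads, the log2 ratio of Itga6 to Itgb4 was therefore -0.34 and -0.21 in KO 4 and WT 4, against 1.40, 1.43, 1.06 and 1.38 in KO 1, KO 2, WT 1 and WT 2, and the ranges did not overlap. For Itga6 to Itgb1, the beta chain shared by most matrix receptors, the log2 ratio was -2.985 and -2.923 in KO 4 and WT 4. It was -2.43, -2.303, -2.825 and -2.478 in KO 1, KO 2, WT 1 and WT 2. Neither ratio is per length, so only changes between libraries are given.

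Among the 11 member integrin chains the largest increase was in Itgb5 (chromosome 16, 33829665 to 33949338, plus strand), at 7.47 and 7.34 log2 CPM in KO 4 and WT 4 against 6.30, 6.18, 6.71 and 6.50 in KO 1, KO 2, WT 1 and WT 2. The difference was 0.98 (SE 0.11, adjusted p = 4.44e-05), or 1.98 times, and was 1.23 within KO and 0.74 within WT. Its share of the summed beta chain level was 10.7% to 11.6% in the libraries numbered 4, against 4.16% to 5.88% in the others. Its partner Itgav did not pass (-0.02, SE 0.07), and was at 7.80 and 7.71 log2 CPM in KO 4 and WT 4 against 7.86, 7.66, 7.83 and 7.74 in the others. Itgb3, another partner of Itgav, was lower, at 2.06 and 1.80 log2 CPM against 2.35, 2.60, 2.93 and 2.65, with a difference of -0.70 (SE 0.18, adjusted p = 0.00763). Without WT 4 its difference was -0.41 and the call ended (adjusted p = 0.16). Itgb6 did not pass, at -0.09 (SE 0.36), with 0.53 within KO and -0.71 within WT.

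The fibronectin receptor chains were both lower. Itga5 (chromosome 15, 103344286 to 103366763, minus strand) was at 4.93 and 4.90 log2 CPM in KO 4 and WT 4, against 5.74, 5.78, 5.73 and 5.76 in KO 1, KO 2, WT 1 and WT 2. The 4 libraries numbered 1 and 2 lay within a range far smaller than the step to the libraries numbered 4, which was -0.84 (SE 0.06, adjusted p = 3.81e-06), or 0.558 times. Itgb1 was at 10.46 and 10.48 log2 CPM against 10.95, 10.84, 10.85 and 10.83, lower, with a difference of -0.40 (SE 0.07, adjusted p = 0.000573), and the call ended with quantile normalization (-0.06) and in WT libraries only (-0.36). Itga3 was at 10.90 and 10.96 log2 CPM against 11.21, 11.19, 11.05 and 11.28, a difference of -0.25 (SE 0.08, adjusted p = 0.0218) that turned to 0.08 with quantile normalization. Its call ended without KO 1 (-0.24), KO 2 (-0.25), KO 4 (-0.20), WT 2 (-0.21) or WT 4 (-0.30), and with library totals (-0.14).

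Of the collagen receptor chains Itga1 was higher, at 2.62 and 2.92 log2 CPM in KO 4 and WT 4 against 1.89, 1.74, 2.48 and 2.16 in KO 1, KO 2, WT 1 and WT 2. The difference was 0.70 (SE 0.16, adjusted p = 0.00386), and without KO 4 it was 0.60 and the call ended (adjusted p = 0.069). Itga2 was at 8.16 and 8.13 log2 CPM against 8.47, 8.27, 8.25 and 8.19, and its difference of -0.15 (SE 0.07) did not pass, though it did without KO 2 (-0.19), with median centring (-0.17), with length and GC correction (-0.25) and in KO only (-0.21). With quantile normalization it was 0.04.

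**Figure D4:**
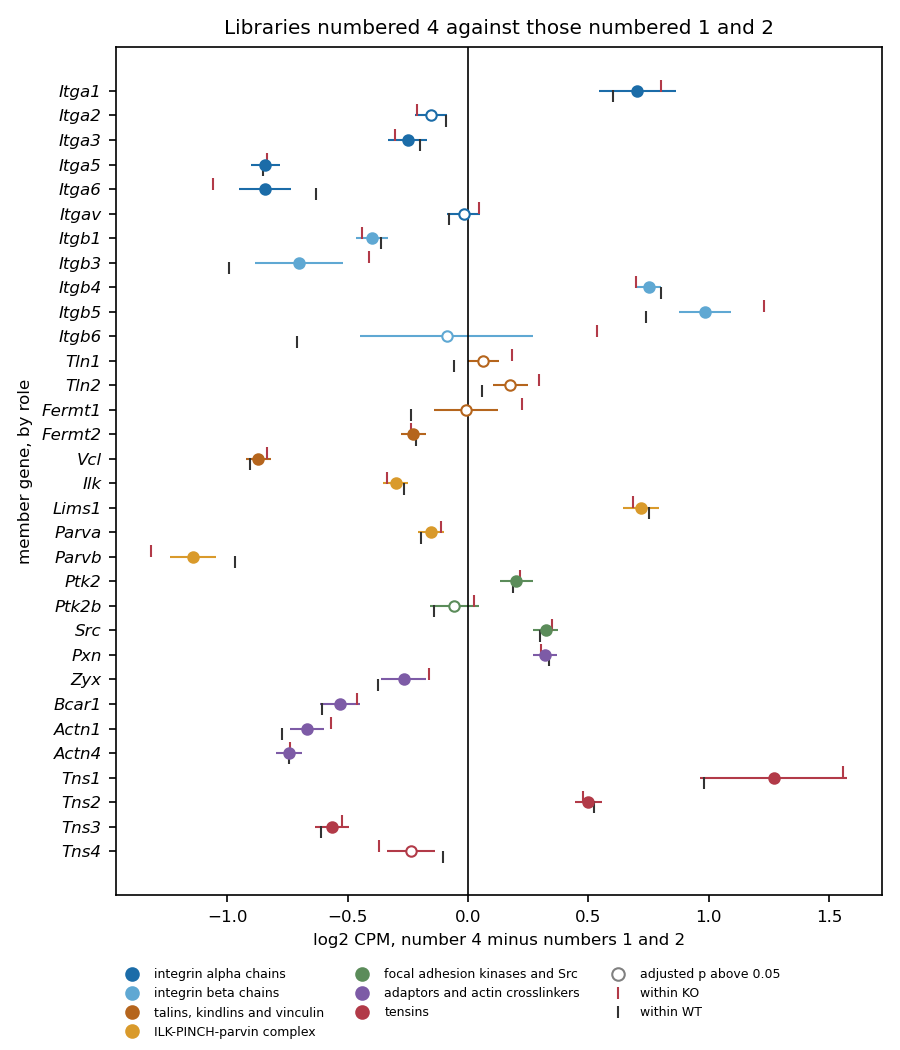
Difference in log2 CPM of libraries numbered 4 minus the rest for each member, by role, as points with the SE from limma (filled where the adjusted p is at most 0.05), with bars for the same difference within KO and within WT. Parvb (-1.14) is the lowest and Tns1 (1.27) the highest, and alpha chains, beta chains and tensins each fall on both sides of 0.

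Vinculin and the alpha-actinins, which tie adhesions to actin, were lower by similar amounts. Vcl (chromosome 14, 20929398 to 21033676, plus strand) was at 7.06 and 6.94 log2 CPM in KO 4 and WT 4, against 7.88, 7.92, 7.89 and 7.82 in KO 1, KO 2, WT 1 and WT 2. The difference was -0.87 (SE 0.05, adjusted p = 1.19e-06), or 0.547 times. Exons of Ap3m1 on the opposite strand overlap 25.5% of the Vcl exons, and Ap3m1 differed by -0.46 (SE 0.07). Actn4 was at 8.56 and 8.61 log2 CPM against 9.32, 9.28, 9.41 and 9.31, lower, with a difference of -0.74 (SE 0.05, adjusted p = 4.18e-06). Actn1 was at 8.80 and 8.63 log2 CPM against 9.37, 9.37, 9.49 and 9.31, lower, with a difference of -0.67 (SE 0.07, adjusted p = 3.56e-05). Fermt2 was at 6.64 and 6.65 log2 CPM against 6.87, 6.88, 6.92 and 6.83, lower, with a difference of -0.23 (SE 0.05, adjusted p = 0.00416). It did not pass in WT only, at a like size (-0.22), or with library totals, at a smaller one (-0.12). Fermt1 did not pass (-0.01, SE 0.13) and lay at 0.22 within KO and -0.24 within WT. Neither talin passed, Tln1 at 0.06 (SE 0.06) and Tln2 at 0.18 (SE 0.07). Tln1 did pass as higher with quantile normalization (0.20), with library totals (0.18) and in KO only (0.18). Tln2 was at 5.79 and 5.49 log2 CPM against 5.47, 5.52, 5.44 and 5.42, and passed without WT 1 (0.20) or WT 4 (0.29), with voom (0.18) and library totals (0.29) and in KO only (0.29), and moved to -0.05 once length and GC were corrected for.

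The complex of ILK, PINCH and parvins split. Parvb, beta-parvin, had the largest decrease of all members, at 3.72 and 3.87 log2 CPM in KO 4 and WT 4 against 5.07, 5.01, 4.88 and 4.79 in KO 1, KO 2, WT 1 and WT 2. The difference was -1.14 (SE 0.10, adjusted p = 9.14e-06), or 0.453 times, and 929 of the 11269 genes tested differed by at least as much in either direction. Its relative Parva was lower, with a difference of -0.15 (SE 0.05, adjusted p = 0.0307), and that call ended without KO 2 (-0.14), KO 4 (-0.19), WT 2 (-0.15) or WT 4 (-0.11). It also ended with quantile normalization (-0.046) and library totals (-0.041), where the difference was smaller. Lims1 rose to 7.62 and 7.55 log2 CPM in KO 4 and WT 4, against 6.99, 6.89, 6.92 and 6.67 in the others, by 0.72 (SE 0.07, adjusted p = 3.08e-05). Ilk was at 7.22 and 7.34 log2 CPM against 7.52, 7.60, 7.60 and 7.61, lower, with a difference of -0.30 (SE 0.05, adjusted p = 0.000734). Since 89.7% of the Ilk exon bases overlap exons of Taf10 and Rrp8 on the opposite strand, which differed by -0.54 and -0.36, the Ilk value is uncertain.

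Of the kinases and adaptors Src, Ptk2 and Pxn were higher while Bcar1 and Zyx were lower. Src was at 7.27 and 7.19 log2 CPM in KO 4 and WT 4 against 6.89, 6.96, 6.89 and 6.90 in KO 1, KO 2, WT 1 and WT 2, higher by 0.32 (SE 0.05, adjusted p = 0.000452). Pxn, paxillin, was at 8.29 and 8.26 log2 CPM against 8.02, 7.96, 7.94 and 7.90, higher by 0.32 (SE 0.05, adjusted p = 0.000411). Ptk2 was at 8.0 and 7.93 log2 CPM against 7.78, 7.78, 7.62 and 7.85, by 0.20 (SE 0.07, adjusted p = 0.0249), and its call ended without KO 1 (0.20), KO 2 (0.20), KO 4 (0.19) or WT 4 (0.21). The Ptk2 call also ended without the mean-variance trend (0.20) and in WT libraries only (0.19). Ptk2b did not pass (-0.06, SE 0.10), at 4.97 and 4.72 log2 CPM against 4.83, 5.05, 4.99 and 4.73.

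Bcar1, the docking protein phosphorylated by FAK and Src, was at 7.50 and 7.35 log2 CPM in KO 4 and WT 4 against 7.99, 7.93, 8.12 and 7.81 in KO 1, KO 2, WT 1 and WT 2. It was lower, with a difference of -0.53 (SE 0.08, adjusted p = 0.000409). Zyx, zyxin, a LIM protein of actin fibres under tension, was lower, with a difference of -0.27 (SE 0.09, adjusted p = 0.0296). The Zyx call ended without KO 1 (-0.29), KO 2 (-0.28) or WT 4 (-0.16), and without WT 1 the difference was -0.18 and passed. The call also ended with quantile normalization (-0.081) and library totals (-0.16).

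Of the tensins 2 were higher, 1 was lower and 1 did not pass, beside 31.8% higher and 33.8% lower of all genes tested. Tns1 was at 1.89 and 1.92 log2 CPM in KO 4 and WT 4 against 0.53, 0.13, 1.40 and 0.48 in KO 1, KO 2, WT 1 and WT 2, higher by 1.27 (SE 0.30, adjusted p = 0.00508), and without KO 4 it was 0.98 and did not pass. Tns2 was at 6.28 and 6.39 log2 CPM against 5.82, 5.78, 5.84 and 5.89, higher by 0.50 (SE 0.06, adjusted p = 5.31e-05). Tns3 was at 8.58 and 8.39 log2 CPM against 9.18, 9.02, 9.10 and 8.91, lower, with a difference of -0.57 (SE 0.07, adjusted p = 0.000107). Tns4 did not pass (-0.24, SE 0.10), but did without WT 1 (-0.32) or WT 4 (-0.37), with median centring (-0.26), with length and GC correction (-0.30) and in KO only (-0.37).

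The stretches before the starts of 3 members that moved furthest in their roles are shown because Vcl and Actn4 were lower and Itgb5 higher in the libraries numbered 4. They were chosen after their values were seen. The sequences are RefSeq's on GRCm38.p6, the 250 bases before the annotated start, 5′ to 3′ on the gene's strand, and capitals mark matches to 3 motifs on either strand: the CArG box bound by SRF, GGAATG bound by TEAD factors and TGANTCA bound by AP-1 factors.
Vcl, chr14:20929148-20929397, plus strand: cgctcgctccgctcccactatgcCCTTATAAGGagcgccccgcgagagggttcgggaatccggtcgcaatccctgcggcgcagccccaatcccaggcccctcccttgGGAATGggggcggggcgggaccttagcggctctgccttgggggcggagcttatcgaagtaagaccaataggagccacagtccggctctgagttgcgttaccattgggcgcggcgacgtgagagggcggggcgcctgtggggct
Actn4, chr7:28962333-28962582, minus strand: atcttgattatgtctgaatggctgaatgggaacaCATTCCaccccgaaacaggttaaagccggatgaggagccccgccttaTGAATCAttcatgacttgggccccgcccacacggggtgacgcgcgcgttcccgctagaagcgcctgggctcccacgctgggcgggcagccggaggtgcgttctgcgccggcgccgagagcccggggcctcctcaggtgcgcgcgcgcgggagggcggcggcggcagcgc
Itgb5, chr16:33829415-33829664, plus strand: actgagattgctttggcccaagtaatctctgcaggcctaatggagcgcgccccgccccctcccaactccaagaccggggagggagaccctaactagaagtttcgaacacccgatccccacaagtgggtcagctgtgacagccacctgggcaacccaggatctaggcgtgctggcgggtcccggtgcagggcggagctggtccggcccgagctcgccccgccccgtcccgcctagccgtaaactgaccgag
In Vcl the CArG box lay at -227 to -218 and the TEAD motif at -143 to -138 from the start. In Actn4 the TEAD motif lay at -216 to -211 and the TGANTCA match at -169 to -163, and in Itgb5 none of the 3 was in this window. The Actn4 match reads TGAATCA, which fits the loose form only. RefSeq promoters were found for 23 of the 32 members, 29 promoters in all. The CArG box was in 2 of 15 promoters of members lower in the libraries numbered 4 (Vcl and Fermt2), 0 of 8 of those higher and 1 of 6 of the rest (Itgb6), beside 1.47% of all 32851 promoters. GGAATG was in 3 of 15 (Actn4, Itgb1 and Vcl), 0 of 8 and 0 of 6, beside 12.6% of all. TGANTCA was in 2 of 15 (Zyx and Actn4), 0 of 8 and 0 of 6, beside 6.75% of all. The motifs did not overlap in the stretches shown. A match is a description, not a site.

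Genes around the members in the same pathway were taken from further lists. In KO against WT 0 genes of these lists passed, higher or lower, as with the members. Between the libraries numbered 4 and the others, the list of other integrin chains had 4 of 14 genes tested. Of the 4 tested, 2 were higher and 1 lower, beside 31.8% and 33.8% of all genes tested. Itga7, a laminin receptor chain, was lower, with a difference of -0.92 (SE 0.14), at 3.47 and 3.14 log2 CPM in KO 4 and WT 4 against 4.04, 4.19, 4.22 and 4.45 in KO 1, KO 2, WT 1 and WT 2. Itgb7 and Itgb2, known from leukocytes, were higher by 1.19 (SE 0.25) and 0.67 (SE 0.14), and Itga8 did not pass (-0.97, SE 0.40). Itgb2 was at 6.0 and 6.18 log2 CPM in KO 4 and WT 4, against 5.30, 5.16, 5.29 and 5.90 in the others.

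Of 55 other focal adhesion proteins 44 were tested, of which 10 were higher and 16 lower in the libraries numbered 4, with a median of -0.08. Over all genes tested 31.8% were higher and 33.8% lower, with a median of 0.0031. Fyn, a kinase related to Src, was at 6.12 and 6.06 log2 CPM in KO 4 and WT 4 against 4.60, 4.62, 4.70 and 4.75 in KO 1, KO 2, WT 1 and WT 2, higher by 1.42 (SE 0.07, adjusted p = 5.22e-07). Trip6, a relative of zyxin, was higher by 0.69 (SE 0.05). Apbb1ip and Rap1b, which encode the adaptor RIAM and a small GTPase that together bring talin to integrins, were lower, with differences of -1.12 (SE 0.08) and -0.63 (SE 0.07).

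Hemidesmosome genes, 9 of 9 tested and including Itga6 and Itgb4, had 2 higher and 5 lower, with a median of -0.51. The shares over all genes tested were 31.8% higher and 33.8% lower. Plec, plectin, which links Itgb4 to keratins, was at 7.71 and 7.42 log2 CPM in KO 4 and WT 4 against 8.81, 8.93, 8.55 and 8.69 in KO 1, KO 2, WT 1 and WT 2, lower, with a difference of -1.18 (SE 0.06, adjusted p = 6.11e-07). Lamb3, a chain of the hemidesmosomal laminin, was lower, with a difference of -1.51 (SE 0.09), and Dst, dystonin, was higher by 0.48 (SE 0.05). Of the integrin ligands 23 of 30 were tested, with a median of 0.26. Of these 9 were higher and 7 lower, beside 31.8% and 33.8% of all genes tested. Lamb1 and Lama5, chains of other laminins, were higher by 0.79 (SE 0.06) and 0.75 (SE 0.08), and Tnc, tenascin C, was lower, with a difference of -1.95 (SE 0.14). Counts and medians of these lists are descriptions, and none was tested as a group.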

How the data were processed

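RNA from KO and WT pools of 4T1 cells was sequenced, and the authors deposited log2 CPM per gene. Per the submitters' processing notes the tools included Trimmomatic, STAR, featureCounts and edgeR, with GRCm38, and whether counting used strand was not stated. Whole reads were recovered for 100% of values (tolerance 0.01 reads), giving 17772003 to 19988206 reads per library, and 3 reads correspond to 0.144 to 0.173 CPM. The columns numbered 4 were matched to a genotype and not to a titled pool. Nothing states that libraries came from separate cultures, so p-values measure the spread between these libraries.

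Genes with log2 CPM of at least 0 in 3 or more of the 6 libraries were tested (11269, with 183 left out), using limma 3.58.1 with a mean-variance trend, two-sided, with Benjamini-Hochberg adjustment over all genes tested and a threshold of 0.05. Deviations from the group mean correlated at 0.744, 0.784 and 0.921 between KO and WT libraries numbered 1, 2 and 4, and at 0.687 for KO 1 with WT 2 and 0.617 for KO 2 with WT 1. The contrast of KO 1 with KO 2 correlated with that of WT 1 with WT 2 at 0.256 across genes. Column numbers were taken to pair libraries because each library correlated best with its own number, from the data and not from a label. Lengths and positions are those of GENCODE M21. The members and lists, and the choice of column number 4 as a comparison, were made with earlier results of these data known. Every integrin chain, the 3 members of each role with the largest difference for number 4 and the 6 with the largest KO minus WT difference were named, with up to 4 genes of each other list by smallest p, and other genes were named after their values were seen. Alternatives covered normalization, filters, a pseudocount, counts with voom, length and GC correction, the block and leaving out each library.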

Additional observations from a re-analysis of the deposited data

How the results depend on the processing

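With the column number as a replicate block the members' median difference of KO from WT was 0.042 and 0 members passed, as without the block, and no alternative run gave a member call for KO against WT. Leaving out 1 library in turn moved that median between -0.047 and 0.094, and moved single differences across 0, with ranges of -0.61 to 0.043 for Itgb5, -0.0087 to 0.55 for Itga6, -0.11 to 0.37 for Lims1, -0.076 to 0.30 for Tns3 and -0.12 to 0.38 for Itgb4. Those fits have no block, so leaving out a library makes column numbers unequal between KO and WT, and within pairs Lims1, Tns3 and Itgb4 were above WT in 3 of 3. Itgb6 was -0.16 in libraries 1 and 2 only. The count of members with an interaction was 0 to 6 on leaving out a library. Between the libraries numbered 4 and the others, the members' median was -0.055 with quantile normalization, -0.21 with length and GC correction, -0.040 with reads scaled to library totals and -0.20 in WT libraries only, and -0.20 to -0.14 on leaving out a library.

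Members whose direction turned had small differences, and Itga3 was the only called one. With quantile normalization Fermt1 was at 0.089, Itga2 at 0.037, Itga3 at 0.085 and Itgav at 0.13. With library totals Ptk2b was at 0.060, Fermt1 at 0.11, Itgav at 0.0945 and Itgb6 at 0.083. With length and GC correction Tln1 was at -0.11 and Tln2 at -0.050. In KO only Ptk2b was at 0.026, Fermt1 at 0.22, Itgav at 0.044 and Itgb6 at 0.53, and in WT only Tln1 was at -0.057. On leaving out a library the ranges were -0.14 to 0.026 for Ptk2b, -0.057 to 0.18 for Tln1, -0.24 to 0.22 for Fermt1, -0.079 to 0.044 for Itgav and -0.71 to 0.53 for Itgb6. The cause was not tested. Depth limits Tns1, Itga1, Itgb3 and Itgb6, which had the fewest reads of the members.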
